A study of Mus musculus with 77 samples.

Results

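The 7 genes described here are Pck1, G6pc, Fbp1, Tat, Igfbp1, Irs2 and Ppargc1a, a group of hepatic genes of glucose production and of the response to fasting. They were chosen by name, with earlier results of these data known, and each was found by its Ensembl ID among the 55273 features of the mRNA and small RNA count files and the 55421 features of the total RNA files. The libraries number 77 and come from liver, kidney, plasma and the tissues that the labels call VsWAT and GAS. The labels mention no fasting, so the name of the gene group describes what the genes are known for and not a treatment of these mice.

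All mice were males aged 12 weeks. For 2 weeks they ate either high-fat food (the HFD groups) or its low-fat control (the LFD groups), and tissues were flash frozen. Every group carries the same 3 alleles, Cyp3a13tm1Ahs, then Del(5Cyp3a57-Cyp3a59)1Ahs, and lastly Tg(APOE-CYP3A4)A1Ahs, on an FVB.129P2 background, in which mouse Cyp3a genes are inactivated or deleted and human CYP3A4 is expressed from an APOE-derived construct, so no group is wild type. Each HFD or LFD group holds 3 libraries, except 7 groups of 2: kidney LFD input and pull-down, LFD liver small RNA pull-down and the 4 plasma groups. Input (IN) is the RNA as extracted and pull-down is the RNA recovered through its label. The labelling compound, the cells that were labelled and the recovery protocol are not given in the sources used here, so a pull-down difference is a measured difference in composition between recovered RNA and input RNA. The labels do not tie replicates to single animals, and p-values therefore measure only the spread between these libraries.

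Liver and kidney are the organs that release glucose made from lactate, glycerol and amino acids. Pck1 encodes the cytosolic phosphoenolpyruvate carboxykinase that commits oxaloacetate to this route, Fbp1 encodes fructose-1,6-bisphosphatase, and G6pc encodes the catalytic subunit of glucose-6-phosphatase, the last step before glucose leaves the cell. Tat encodes tyrosine aminotransferase, a classical glucocorticoid-induced enzyme of liver. Igfbp1 encodes a secreted binding protein for insulin-like growth factors whose gene is repressed by insulin, Irs2 encodes an adaptor of the insulin receptor, and Ppargc1a encodes the coactivator PGC-1alpha, which acts with FOXO1, HNF4A and the glucocorticoid receptor on gluconeogenic genes. Glucagon, glucocorticoids and low insulin raise this programme in fasting, and insulin lowers it after feeding. Pck1 also serves glyceride-glycerol synthesis in adipocytes, and Ppargc1a also serves mitochondrial biogenesis in muscle and kidney.

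RefSeq promoter windows of build GRCm38.p6, from 250 bases before to 50 bases after the start that RefSeq uses for the window, were available for all 7 genes. Those of Pck1, G6pc and Ppargc1a are shown because they are the windows in which one of the searched motifs was found. Capitals mark the motif, and each sequence is written 5′ to 3′ on the strand of the gene: Pck1 from chr2:173152823-173153122 on the plus strand, G6pc from chr11:101367466-101367765 on the plus strand and Ppargc1a from chr5:51567676-51567975 on the minus strand. The Ppargc1a window lies inside the annotated span of its gene, so it surrounds 1 of several annotated starts. The window of Tat, which was searched but is not shown, also lies inside the span of its gene.
Pck1: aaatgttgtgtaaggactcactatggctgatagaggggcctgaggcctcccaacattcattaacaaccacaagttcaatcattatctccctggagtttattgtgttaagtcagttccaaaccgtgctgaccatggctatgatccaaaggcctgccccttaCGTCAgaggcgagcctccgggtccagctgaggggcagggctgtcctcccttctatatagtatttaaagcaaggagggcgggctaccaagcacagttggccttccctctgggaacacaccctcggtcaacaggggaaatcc
G6pc: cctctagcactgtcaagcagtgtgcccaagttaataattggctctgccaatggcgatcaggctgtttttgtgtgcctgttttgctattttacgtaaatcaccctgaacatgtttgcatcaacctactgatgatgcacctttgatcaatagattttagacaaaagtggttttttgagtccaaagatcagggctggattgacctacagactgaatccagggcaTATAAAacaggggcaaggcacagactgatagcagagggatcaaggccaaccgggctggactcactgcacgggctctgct
Ppargc1a: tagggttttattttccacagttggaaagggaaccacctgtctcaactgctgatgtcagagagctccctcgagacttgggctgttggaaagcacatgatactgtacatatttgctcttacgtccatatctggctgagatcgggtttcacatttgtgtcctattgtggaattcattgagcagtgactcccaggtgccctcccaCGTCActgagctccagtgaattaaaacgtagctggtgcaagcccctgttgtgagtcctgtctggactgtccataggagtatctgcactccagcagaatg
The capitals in Pck1 and Ppargc1a are the short cAMP response element TGACG read on the reverse strand, which starts 90 bases before the start in the Pck1 window and 49 bases before that in the Ppargc1a window. Both strands were searched, and the short element lies within the full element TGACGTCA. The short element was present in 20.8% of the 32851 mouse promoter windows of the same length. Its presence in 2 of the 7 windows is therefore a description, and whether it acts as a site was not tested. The capitals in G6pc are the TATA box TATAAA, 29 bases before the start in its window, which was present in 13.6% of all windows. The full cAMP response element TGACGTCA (1.79% of all windows), the forkhead element TGTTTAC (3.65%) and AGAACA, a short part of the glucocorticoid receptor element (19% of all windows), were found in 0 of the 7 windows, which says only that these letters are not in these bases.

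On GRCm38 the genes lie at chr2:173153073-173159274 (Pck1), chr11:101367716-101377903 (G6pc), chr13:62864753-62888298 (Fbp1), chr8:109986078-109999804 (Tat), chr11:7197787-7202546 (Igfbp1), chr8:10984681-11008929 (Irs2) and chr5:51454249-52115853 (Ppargc1a). Of these genes, 3 share genomic sequence with another annotated gene: Fbp1 with the long noncoding RNA Gm38679, Tat with the pseudogene Gm45795 and Irs2 with the long noncoding RNA 9530052E02Rik. Whether the authors' counting used strand is not given in the sources used here, so reads of these pairs may not be told apart.

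Levels are given as CPM, the assigned count scaled to the same total (1000000) in each library, in the order of replicates 1, 2 and 3 of the group, and are compared only within a gene. Liver mRNA inputs held 3033702 to 4942158 assigned counts each, kidney libraries 3741335 to 19645443 and plasma libraries only 221875 to 828030. Defining markers were detected in the labelled tissues: all 8 hepatocyte markers were detected in every liver mRNA library, with a summed level of 34879 to 84959 CPM, all 8 kidney tubule markers in every kidney library, all 7 adipocyte markers in every VsWAT library and all 7 skeletal muscle markers in every GAS library. Some libraries stood apart. In liver mRNA input, LFD replicates 2 and 3 and HFD replicates 1 and 3 differed little more than by sampling noise (chi-square per degree of freedom of 1.128 and 1.182), so each diet group may hold 2 distinct samples. In VsWAT small RNA input, HFD replicates 1 and 2 were also near-identical (chi-square per degree of freedom of 1.527). Liver input LFD replicate 1 held 158 CPM of the kidney gene Kap against 7.87 to 41.2 CPM in the other 5 inputs, and 2 kidney inputs (HFD 1 and LFD 1) held 16.6% and 17.6% of mitochondrial mRNA against 11.6% to 12.0% in the others. Without liver input LFD replicate 1 or without the 2 kidney inputs, every pull-down call of the 7 genes in liver and kidney mRNA held; other values without them stand beside the results they changed.

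In liver mRNA, recovered RNA was richer than input in 6 of the 7 genes and poorer in Fbp1. Over both diets, all features tested split into 36.3% higher and 35.3% lower in pull-down at an adjusted p under 0.05 (edgeR quasi-likelihood test, Benjamini-Hochberg adjustment over all features), and the median log2 difference was 1.36 over the 7 members and 0.01 over all 10865 features. All 7 calls held under each of the 18 alternatives run for this comparison.

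Pck1 read 2221, 2144 and 2249 CPM in HFD input and 2584, 3947 and 3884 CPM in LFD input. In pull-down it read 8650, 7843 and 8167 CPM in HFD and 8367, 8229 and 7825 CPM in LFD. Every pull-down library lay above every input, and the spread seen among the LFD inputs was not seen in the pull-down. Pck1 rose by 1.32 ± 0.11 (SE) on the log2 scale, a 2.5-fold difference (edgeR adjusted p = 8.5e-08, 6 libraries against 6). G6pc read 253, 219 and 248 CPM in HFD input and 359, 639 and 666 CPM in LFD input. Its pull-down read 901, 861 and 913 CPM in HFD and 1369, 1283 and 1426 CPM in LFD. The lowest pull-down library again exceeded the highest input, and G6pc rose by 1.36 ± 0.12 (edgeR adjusted p = 9.2e-08).

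Fbp1 went the other way. It read 647, 645 and 675 CPM in HFD input and 1546, 1036 and 1003 CPM in LFD input, against 169, 214 and 210 CPM in HFD pull-down and 267, 378 and 266 CPM in LFD pull-down. No pull-down library reached the lowest input, and Fbp1 fell by 2.12 ± 0.17 on the log2 scale, a 4.36-fold difference (edgeR adjusted p = 4e-08). The 3 enzymes of the same route thus did not share a direction in recovered RNA.

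Tat, the glucocorticoid-induced aminotransferase, had the largest rise of the 7. It read 2930, 2660 and 2837 CPM in HFD input and 3637, 5895 and 5828 CPM in LFD input. The pull-down read 22259, 17149 and 19499 CPM in HFD and 32430, 20985 and 22109 CPM in LFD. These groups were far from overlapping, and Tat rose by 2.31 ± 0.14, a 4.95-fold difference (edgeR adjusted p = 4.8e-09). Igfbp1, the secreted binding protein, read 89.2, 96.6 and 94.3 CPM in HFD input and 244, 288 and 293 CPM in LFD input, and 381, 341 and 353 CPM in HFD pull-down and 813, 726 and 689 CPM in LFD pull-down. All pull-down libraries lay above all inputs, with a rise of 1.43 ± 0.10 (edgeR adjusted p = 9.2e-09).

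The regulators were measured at fewer counts. Ppargc1a read 9.39, 11.4 and 6.68 CPM in HFD input and 22.7, 24.5 and 20.3 CPM in LFD input, and 25.8, 26.0 and 32.6 CPM in HFD pull-down and 80.6, 115 and 96.4 CPM in LFD pull-down. The lowest pull-down value, from an HFD library, lay just above the highest input, from an LFD library, and within each diet the fractions were well apart. Ppargc1a rose by 1.65 ± 0.18 (edgeR adjusted p = 8.7e-07). Irs2 read 9.98, 10.9 and 10.5 CPM in HFD input, 8.90, 10.4 and 14.2 CPM in LFD input, 45.4, 28.6 and 31.1 CPM in HFD pull-down and 17.1, 18.9 and 17.4 CPM in LFD pull-down. Pull-down was above input throughout, by 0.98 ± 0.19 (edgeR adjusted p = 0.00026).

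**Figure D1:**
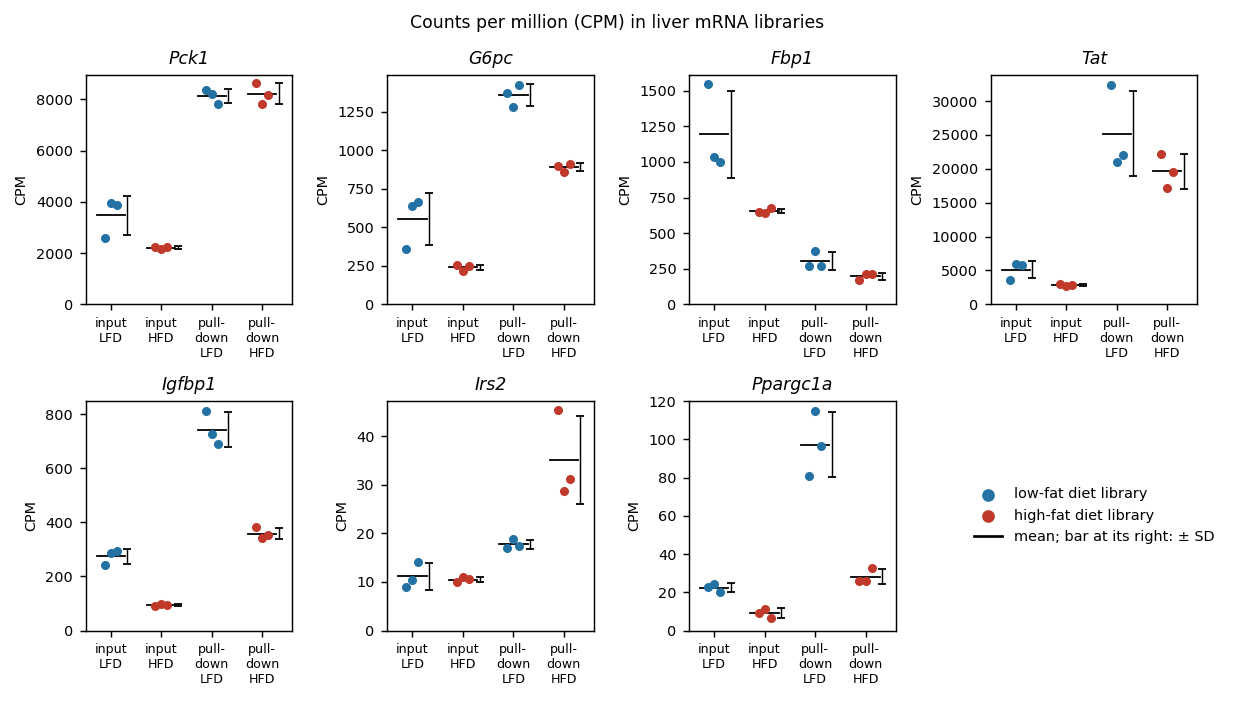
CPM of the 7 genes in each liver mRNA library, 1 panel per gene, with input and pull-down of HFD and LFD mice along the x axis (points, libraries; lines, group mean; bars, ± SD; n = 3). Pull-down libraries lie above inputs in 6 panels and below them for Fbp1. All LFD libraries exceed all HFD libraries in both fractions for G6pc, Fbp1, Igfbp1 and Ppargc1a.

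Other genes of the pathway were counted by list. Of 22 regulators of the programme (transcription factors, coactivators, receptors and kinases), 18 rose and 2 fell in recovered liver mRNA, with a median log2 difference of 1.23. Foxo1, the insulin-restrained forkhead factor, rose by 1.50 ± 0.09, Klf15 by 1.98 ± 0.14 and the deacetylase gene Sirt1 by 1.89 ± 0.13. Of 20 other genes induced by fasting or glucocorticoids, 13 rose and 1 fell (median 0.94); the repressor gene Bcl6 rose by 1.45 ± 0.09 and the glucocorticoid target Tsc22d3 by 1.23 ± 0.09. Of 20 tested genes of the gluconeogenic pathway outside the members, 4 rose and 13 fell (median -0.90), among them Got2 (-1.63 ± 0.11) and Mdh1 (-1.43 ± 0.13) of the malate-aspartate shuttle and the triose-phosphate isomerase gene Tpi1 (-1.30 ± 0.10). Of 20 genes of amino acid catabolism 5 rose and 13 fell (median -0.55), with Uroc1 at -1.22 ± 0.10, Hgd at -0.99 ± 0.08 and Fah at -1.36 ± 0.12. Of 12 genes known as insulin-induced, 2 rose and 5 fell (median -0.15), including Scd1 (-1.42 ± 0.13), Me1 (-1.27 ± 0.14) and Acly (-0.57 ± 0.10). The list genes named here were among those with the smallest p of their list, with edgeR adjusted p from 5.7e-09 to 0.00012. Markers moved as well: all 8 hepatocyte markers fell (median -1.51), as did the 4 macrophage markers and the 3 endothelial markers tested. Their part in the member values was not tested. A difference between recovered and input RNA does not measure cell numbers or RNA per cell.

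**Figure D2:**
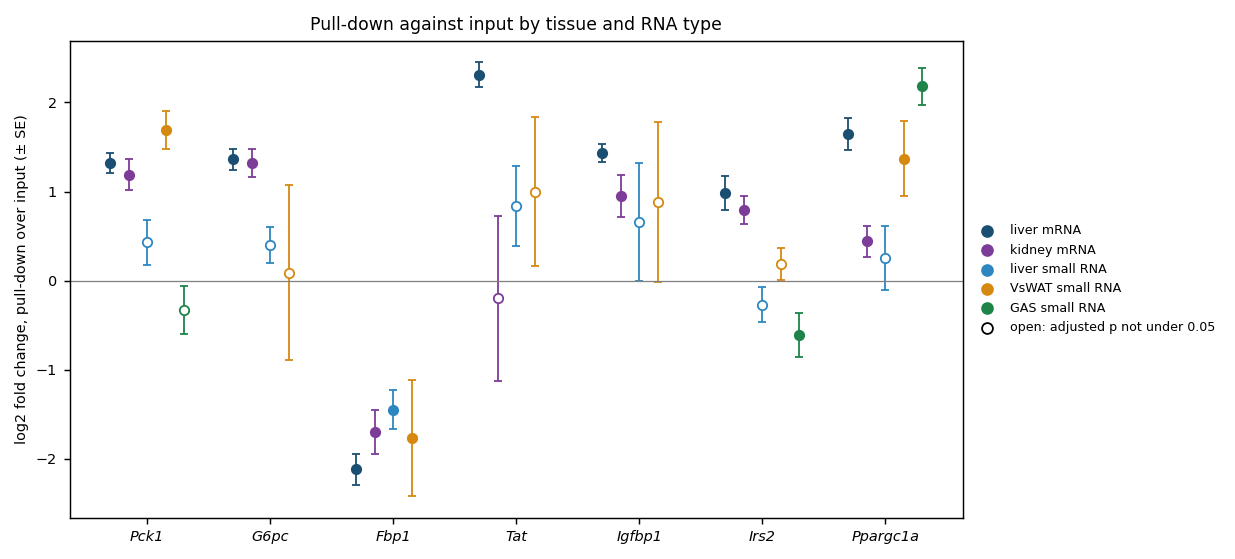
Log2 difference between pull-down and input (y axis, bars ± SE) for each gene (x axis) in liver mRNA, kidney mRNA and the small RNA of liver, VsWAT and GAS; open symbols did not pass an adjusted p of 0.05. Fbp1 lies below 0 in liver and kidney, while Pck1 lies above 0 in liver mRNA (1.32), kidney mRNA (1.19) and VsWAT (1.69).

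On HFD, liver mRNA held less of most of these genes. In input, 5 of the 7 passed the test as lower and 0 as higher, against 8.09% of all 10177 features lower and 4.96% higher; in pull-down, 5 passed as lower and 1 as higher, against 8.06% lower and 7.56% higher of 10085 features. Without LFD replicate 1 the 5 input calls held, with log2 differences from -0.70 (Pck1) to -1.50 (Igfbp1). Their edgeR adjusted p was at most 9.3e-05 (Ppargc1a). The LFD inputs left in that fit are the near-identical pair. The LFD spread behind these p-values may therefore be little more than sampling noise. Over all features, 1328 passed in the main fit and 48 to 5582 when 1 input at a time was left out. The calls without LFD replicate 1 can therefore not be set against the 8.09%. The input result depends on the libraries that may be repeats. With the near-identical inputs summed, 0 of the 7 passed (adjusted p from 0.26 to 0.39 for the 5 genes, and 0 of all features passed), and with the replicate number as a block, which the inputs gave no sign of sharing, 0 passed. The pull-down libraries held no such pair, and they carry the diet comparison for this tissue.

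Igfbp1, which insulin represses, was lower on HFD in both fractions. All HFD libraries, at 89.2 to 96.6 CPM in input and 341 to 381 CPM in pull-down, lay below all LFD libraries, at 244 to 293 CPM in input and 689 to 813 CPM in pull-down. The HFD minus LFD log2 difference was -1.52 ± 0.11 in input (edgeR adjusted p = 0.0018) and -1.18 ± 0.09 in pull-down (edgeR adjusted p = 4.4e-11). Igfbp1 was the only member still past the threshold in input when any 1 of the HFD replicates 1, 2 and 3 or LFD replicates 2 and 3 was left out.

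Ppargc1a showed the largest diet difference of the 7 in pull-down, where HFD read 25.8, 26.0 and 32.6 CPM against 80.6, 115 and 96.4 CPM in LFD. These groups did not overlap, and Ppargc1a was lower on HFD by a log2 difference of -1.93 ± 0.15, 3.81-fold (edgeR adjusted p = 5.2e-10). In input it was lower by -1.27 ± 0.25 (edgeR adjusted p = 0.024), also without overlap. G6pc, the glucose-6-phosphatase gene, was lower on HFD by -0.74 ± 0.08 in pull-down, where 861 to 913 CPM stood against 1283 to 1426 CPM (edgeR adjusted p = 1.6e-07). In input the difference was -1.15 ± 0.18 (edgeR adjusted p = 0.015), with LFD replicate 1 nearer to the HFD libraries than the other LFD libraries were.

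Fbp1 was lower on HFD in pull-down by -0.75 ± 0.15 (edgeR adjusted p = 0.005), with 169 to 214 CPM against 266 to 378 CPM. With the spread taken from all 4 liver mRNA groups the edgeR adjusted p of this difference was 0.095. In input the Fbp1 difference of -0.86 ± 0.25 did not pass (edgeR adjusted p = 0.065), although HFD libraries lay below LFD libraries. Without LFD replicate 1, which had the highest Fbp1 level, it was -0.50 (edgeR adjusted p = 8.7e-07). That fit leaves only the near-identical LFD inputs, so its p may rest on little more than sampling noise. Tat was lower on HFD by -0.81 ± 0.14 in input (edgeR adjusted p = 0.02) and by -0.48 ± 0.14 in pull-down (edgeR adjusted p = 0.027). The Tat pull-down groups overlapped, since HFD replicate 1 at 22259 CPM exceeded 2 LFD libraries, and the call was lost without HFD replicate 2 (adjusted p = 0.1), HFD replicate 3 (adjusted p = 0.071) or LFD replicate 1 (-0.29, adjusted p = 0.071). It was also lost with DESeq2 (-0.49, adjusted p = 0.14), with total-count scaling (-0.36, adjusted p = 0.14) and with the spread taken from all 4 liver mRNA groups (-0.49, adjusted p = 0.09), so 6 of 12 alternatives kept it.

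Pck1 differed between the fractions in how it was read. In input HFD was lower by -0.60 ± 0.13 (edgeR adjusted p = 0.029) without overlap, whereas in pull-down, at 7843 to 8650 CPM on HFD and 7825 to 8367 CPM on LFD, the groups overlapped and the difference was -0.12 ± 0.09 (edgeR adjusted p = 0.42). Irs2, the insulin receptor adaptor, was the 1 member higher on HFD: 45.4, 28.6 and 31.1 CPM against 17.1, 18.9 and 17.4 CPM in pull-down, a log2 difference of 0.86 ± 0.19 without overlap (edgeR adjusted p = 0.0021), which held under all 12 alternatives. In input Irs2 differed by -0.04 ± 0.20 (edgeR adjusted p = 0.91), with overlapping groups.

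The test of whether diet changed the enrichment itself gave 0 of the 7 genes past the threshold, against 3.36% of all 10865 features (edgeR; 4 members had an unadjusted p under 0.05, and DESeq2 called 1, Pck1, at 0.44 with an adjusted p of 0.014). Pck1 came closest, with an interaction of 0.49 ± 0.14 (edgeR adjusted p = 0.076), followed by Irs2 at 0.90 ± 0.29 (edgeR adjusted p = 0.1). Without input LFD replicate 1, which stood apart in Kap, 4 members passed: Pck1 at 0.52 (adjusted p = 0.0004), G6pc at 0.52 (adjusted p = 0.00078), Irs2 at 0.89 (adjusted p = 0.025) and Ppargc1a at -0.80 (adjusted p = 0.034), all with edgeR. The LFD inputs of that fit are again only the near-identical pair, so these p-values have the same limit. Over all features, 365 passed in the main fit and 14 to 3052 when 1 library at a time was left out. The 4 calls can therefore not be set against the 3.36%. With near-identical inputs summed or a replicate block, 0 features passed in all, so these values give no stable call for the 7 genes.

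**Figure D3:**
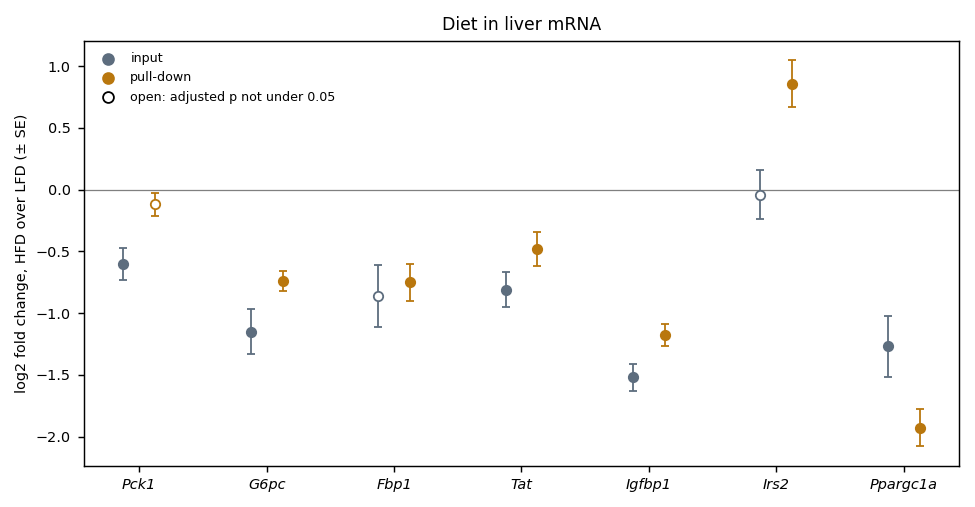
HFD minus LFD log2 difference of each gene in liver mRNA input and in liver mRNA pull-down, with SE bars (n = 3 libraries a group, open symbols not past an adjusted p of 0.05). Most genes lie below 0 in both fractions; Irs2 lies at -0.04 in input and at 0.86 in pull-down, and Pck1 at -0.60 and -0.12.

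Related genes were mostly lower on HFD where they passed. In pull-down, 12 of 20 genes of amino acid catabolism fell and 0 rose (Gls2 -0.94 ± 0.10, Aass -0.66 ± 0.10), 9 of 20 genes of the gluconeogenic pathway fell and 0 rose (Got1 -0.95 ± 0.09), and 5 of 20 fasting and glucocorticoid genes fell while 1 rose (Dusp1 -1.14 ± 0.10, Cyp4a10 -2.29 ± 0.24). Of the regulators, 2 of 22 rose, including Trib1 (0.56 ± 0.09), and 6 fell, including Klf15 (-0.82 ± 0.10). The insulin-induced genes fell too, 11 of 11 tested with a median of -1.81, led by the desaturase gene Scd1 (-6.07 ± 0.15) and the elongase gene Elovl6 (-2.20 ± 0.10). The median over all features was 0.00. In input the counts lower and higher were 11 and 1 of 20 for amino acid catabolism (Asl -1.37 ± 0.11, Prodh -1.14 ± 0.12), 5 and 0 of 20 for the gluconeogenic pathway (Got1 -0.98 ± 0.11, Gpt -0.85 ± 0.15), 6 and 0 of 19 for fasting and glucocorticoid genes (Cyp4a10 -1.71 ± 0.15, Ddit4 -1.92 ± 0.24), 8 and 0 of 11 for insulin-induced genes (Scd1 -5.96 ± 0.21, Acaca -2.48 ± 0.14) and 4 and 0 of 21 for regulators (Nr0b2 -1.50 ± 0.24, Klf15 -1.11 ± 0.21). Of the hepatocyte markers, 1 of 8 fell in input (Alb, -0.80 ± 0.13) and 2 of 8 in pull-down, Alb by -0.46 ± 0.09 on the log2 scale. Summed hepatocyte markers came to 55157 to 62746 CPM in HFD input against 83227 to 84959 CPM in LFD input, and their part in the input differences was not tested.

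Kidney recovered these transcripts in much the same directions. Of the 7 genes, 5 rose and 1 fell in kidney mRNA pull-down, against 26.9% of all 15023 features higher and 26.3% lower. Pck1 read 2625, 2344 and 2635 CPM in HFD input and 3049 and 4083 CPM in LFD input, against 6722, 10100 and 7556 CPM in HFD pull-down and 7101 and 7396 CPM in LFD pull-down. The fractions did not overlap, and Pck1 rose by 1.19 ± 0.17 (edgeR adjusted p = 0.00017, 5 libraries against 5).

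G6pc read 716, 632 and 697 CPM in HFD input and 676 and 730 CPM in LFD input. In pull-down it read 2035, 2034 and 2538 CPM on HFD and 1391 and 2202 CPM on LFD, above every input, and rose by 1.32 ± 0.16 (edgeR adjusted p = 8.5e-05). Fbp1 read 1136, 1549 and 1679 CPM in HFD input and 944 and 1170 CPM in LFD input, and 472, 293 and 424 CPM in HFD pull-down and 693 and 485 CPM in LFD pull-down. As in liver, no pull-down library reached the lowest input, and Fbp1 fell by 1.70 ± 0.25 on the log2 scale (edgeR adjusted p = 0.00017).

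Igfbp1 stood at 5.87 to 9.79 CPM in the 5 inputs. Its pull-down read 23.6, 24.1 and 19.1 CPM on HFD and 11.2 and 13.1 CPM on LFD, all above the inputs, a rise of 0.95 ± 0.24 (edgeR adjusted p = 0.0047). Irs2, at 21.4 to 25.7 CPM in input and 38.1 to 59.7 CPM in pull-down, rose by 0.79 ± 0.16 without overlap (edgeR adjusted p = 0.0012). Ppargc1a rose by 0.44 ± 0.17 (edgeR adjusted p = 0.042). Its inputs, at 77.2 to 102 CPM, met the lowest pull-down library, LFD replicate 1 at 102 CPM, and the others reached 160 CPM. Only 5 of 16 alternatives kept that call, with adjusted p from 0.0041 to 0.28; it was lost without input HFD 2 (0.087), HFD 3 (0.09) or LFD 2 (0.2) and without pull-down HFD 1 (0.054), HFD 2 (0.093), HFD 3 (0.092) or LFD 2 (0.14). Tat was at most 1.15 CPM in any kidney library and differed by -0.20 ± 0.93 (edgeR adjusted p = 0.87).

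**Figure D4:**
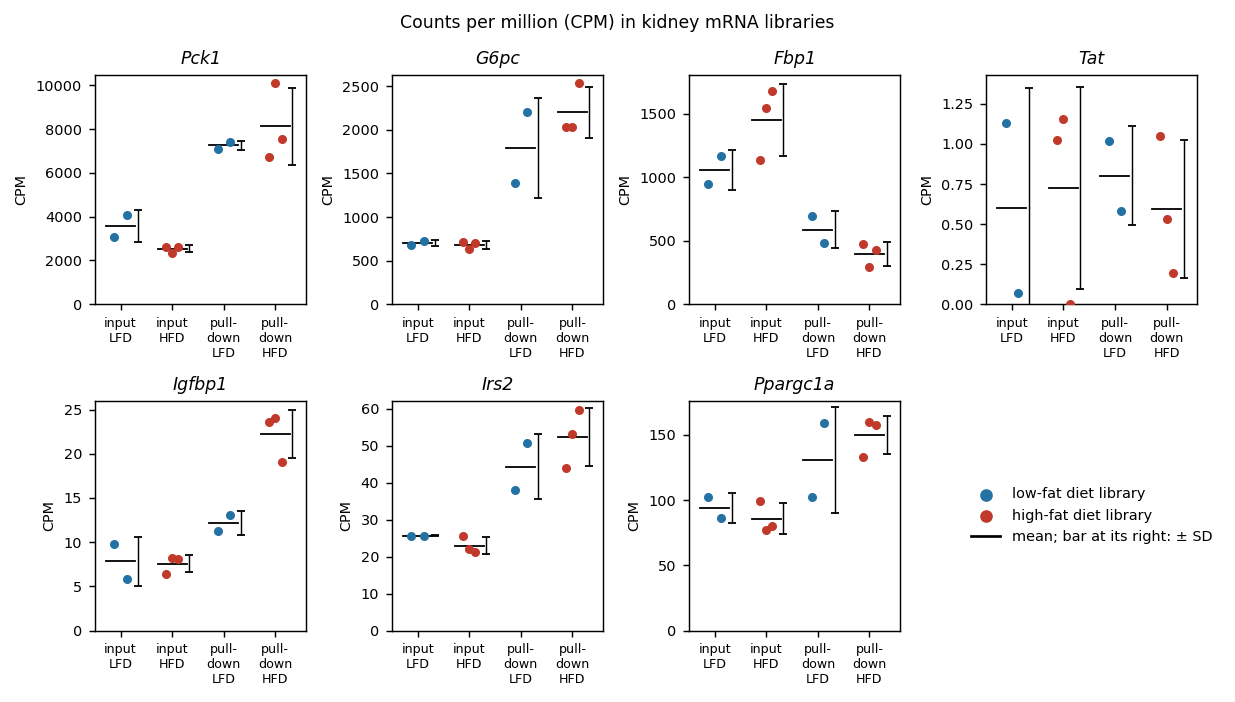
CPM of the 7 genes in each kidney mRNA library, 1 panel per gene, by fraction and diet (points, libraries; lines, group mean; bars, ± SD; n = 3 for HFD and 2 for LFD). Pck1 and G6pc are higher and Fbp1 lower in pull-down, and Tat stays at or under 1.15 CPM.

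The lists around the members split in kidney as well. Regulators counted 14 higher and 2 lower of 21 tested (median 0.96), with Sik1, a cAMP-induced kinase gene, at 2.02 ± 0.23, Klf15 at 1.43 ± 0.20 and Ppara at 1.40 ± 0.20. Fasting and glucocorticoid genes counted 10 higher and 4 lower of 19 (median 0.74), with Per1 at 1.82 ± 0.24, Lpin1 at 1.17 ± 0.15 and the metallothionein gene Mt1 at -1.68 ± 0.21. In the gluconeogenic pathway 0 of 22 rose and 10 fell (median -0.69), led by the pyruvate carrier gene Mpc2 (-1.78 ± 0.19), Mdh1 (-1.47 ± 0.17) and Mdh2 (-1.71 ± 0.24). In amino acid catabolism 0 of 14 rose and 8 fell (median -0.73), among them Oat (-1.22 ± 0.15) and Hgd (-0.99 ± 0.18). Insulin-induced genes counted 3 higher and 3 lower of 11 (median -0.07), with Me1 at -1.53 ± 0.20, Mlxipl at 0.78 ± 0.17 and Elovl6 at -1.30 ± 0.32. The median over all features was 0.01, and 7 of 8 kidney tubule markers fell (median -1.12), whose part in these values was not tested.

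Diet gave no call in kidney. In input, 0 of the 7 genes and 0% of 14273 features passed (edgeR; 1956 features and 1 member had an unadjusted p under 0.05, and DESeq2 called 144 features and 0 members), and in pull-down 0 of the 6 tested and 0% of 12362 features passed (631 features and 2 members with an unadjusted p under 0.05, and DESeq2 called 0 features). Fbp1 in input had a log2 difference of 0.57 ± 0.23 (edgeR adjusted p = 0.36), with overlapping groups. Pck1 in input was below LFD in all 3 HFD libraries, at -0.38 ± 0.20 (edgeR adjusted p = 0.41). In pull-down Igfbp1 was above LFD in all 3 HFD libraries, at 0.84 ± 0.26, and Fbp1 was below at -0.59 ± 0.22, both with an edgeR adjusted p of 0.94. Without the 2 inputs rich in mitochondrial mRNA, which leaves 1 LFD input assumed to vary like the others, 3 members passed in input: Pck1 at -0.53 (adjusted p = 8.1e-05), Fbp1 at 0.65 (adjusted p = 7.5e-06) and Igfbp1 at 0.65 (adjusted p = 0.014), with 6722 of all features. The diet by pull-down interaction gave 0 of 7 members and 0% of 15023 features (edgeR; 1952 features and 1 member at an unadjusted p under 0.05; DESeq2 104 features and 0 members); Fbp1 stood at -1.19 ± 0.35 (edgeR adjusted p = 0.29), and at -1.30 (adjusted p = 0.029) without those 2 inputs.

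Set side by side, liver and kidney inputs differed in 5 of the 7 genes, 2 higher in liver against 26.1% of all 13179 features and 3 lower against 30.9%. Tat marked liver: with 2660 to 5895 CPM in the 6 liver inputs and at most 1.15 CPM in the 5 kidney inputs, its log2 difference was 12.88 ± 0.81 (edgeR adjusted p = 2.2e-08). Igfbp1, at 89.2 to 293 CPM in liver and 5.87 to 9.79 CPM in kidney, was higher in liver by 4.70 ± 0.33 (edgeR adjusted p = 6.7e-08). Ppargc1a was lower in liver, at 6.68 to 24.5 CPM against 77.2 to 102 CPM, by -2.26 ± 0.26 (edgeR adjusted p = 7e-06). Irs2 was lower in liver as well, at 8.90 to 14.2 CPM against 21.4 to 25.7 CPM, by -0.73 ± 0.15 (edgeR adjusted p = 0.0011). None of these 4 pairs of ranges overlapped. G6pc was lower in liver by -0.57 ± 0.23 with an edgeR adjusted p that rounds to 0.05; its HFD livers (219 to 253 CPM) lay well below kidney (632 to 730 CPM), its LFD livers partly overlapped kidney, and 8 of 18 alternatives kept the call, which was lost without any 1 of 7 of the libraries (adjusted p from 0.05 to 0.13) and without the 2 kidney inputs high in mitochondrial mRNA (-0.64, adjusted p = 0.051). Pck1 (0.31 ± 0.15, edgeR adjusted p = 0.093) and Fbp1 (-0.12 ± 0.30, edgeR adjusted p = 0.76) did not pass, with overlapping ranges.

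Around them, amino acid catabolism counted 16 higher and 0 lower in liver of 20 tested (Gls2 10.66 ± 0.27, Tdo2 12.87 ± 0.37), insulin-induced genes 11 higher and 1 lower of 12 (Thrsp 8.60 ± 0.35), regulators 11 higher and 1 lower of 22 (Trib1 2.77 ± 0.15, Cebpa 3.88 ± 0.23), fasting and glucocorticoid genes 10 higher and 6 lower of 19 (Lpin1 3.53 ± 0.22) and the gluconeogenic pathway 4 higher and 8 lower of 22 (Gpt2 4.28 ± 0.24, Gyk -2.84 ± 0.19). The gluconeogenic enzymes as a list therefore had no common direction between the organs, at a median of -0.05 against -0.04 over all features.

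The enrichment itself differed between the organs for 1 gene. Ppargc1a was enriched more in liver than in kidney by 1.04 ± 0.24 on the log2 scale (edgeR adjusted p = 0.0057), against 3.71% of 13724 features higher and 8.84% lower, and the call held under all 29 alternatives. Tat (2.18 ± 0.78, edgeR adjusted p = 0.071) and Fbp1 (-0.70 ± 0.25, edgeR adjusted p = 0.072) did not pass. Pck1 (0.02 ± 0.18), G6pc (-0.11 ± 0.19), Irs2 (0.03 ± 0.21) and Igfbp1 (0.39 ± 0.19) had edgeR adjusted p from 0.2 to 1. The median over all features was -0.19. Of the lists, 2 of 22 regulators passed as higher (Nr0b2 4.37 ± 0.72, Crem 0.89 ± 0.21) and 0 as lower, 4 and 1 of 20 fasting and glucocorticoid genes (Mt1 1.83 ± 0.32, Txnip 1.02 ± 0.15), 3 and 1 of 20 in amino acid catabolism (Aass 1.34 ± 0.17, Cth 0.70 ± 0.19), 1 and 2 of 22 in the gluconeogenic pathway (Got1 0.94 ± 0.16, Gpt -1.38 ± 0.25) and 1 and 3 of 12 insulin-induced genes (Acly -1.04 ± 0.18, Elovl6 1.33 ± 0.29).

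In liver small RNA libraries, which also hold fragments of these mRNAs, the picture depended on scaling. Only Fbp1 passed between pull-down and input, against 27.1% of 8401 features higher and 28.4% lower. Fbp1 read 279, 333 and 211 CPM in HFD input, 343, 624 and 412 CPM in LFD input, 275, 292 and 157 CPM in HFD pull-down and 329 and 301 CPM (replicates 1 and 3) in LFD pull-down. These CPM ranges overlapped, and after edgeR's trimmed-mean (TMM) scaling Fbp1 fell by 1.45 ± 0.22 on the log2 scale (edgeR adjusted p = 2e-05). Pck1, whose CPM in input read 442, 672 and 303 on HFD and 482, 1493 and 895 on LFD and in pull-down 1417, 1389 and 1673 on HFD and 1861 and 2840 on LFD, had a scaled difference of 0.43 ± 0.25 (edgeR adjusted p = 0.15). Here 1 LFD input exceeded 2 pull-down libraries. The other 5 lay between -0.27 ± 0.20 (Irs2) and 0.84 ± 0.45 (Tat), with edgeR adjusted p from 0.092 to 0.57.

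With total-count scaling, under which the median of all features was 1.22 in place of 0.10, 6 members were called as higher, among them Pck1 at 1.50, G6pc at 1.48, Tat at 1.91 and Irs2 at 0.85, whose sign thereby turned, and Fbp1 was no longer called (-0.34, adjusted p = 0.2). Most features were called as higher with that scaling: 5731 of the 8401 tested rose and 699 fell, against 2273 and 2387 with TMM. Igfbp1 was the most variable of the set: the pull-down of HFD replicate 3 read 3298 CPM against 825 and 498 CPM in the other HFD pull-downs. Around the members, 0 of 19 gluconeogenic genes rose and 8 fell (Pcx -1.72 ± 0.22, Gpt -1.65 ± 0.24), 0 of 18 in amino acid catabolism rose and 10 fell (Uroc1 -1.31 ± 0.21, Hpd -1.45 ± 0.25), 0 of 20 fasting and glucocorticoid genes rose and 5 fell (Ddit4 -1.83 ± 0.57), 4 of 20 regulators rose and 1 fell (Sirt1 1.08 ± 0.19, Gcgr -1.34 ± 0.19) and 1 of 12 insulin-induced genes rose and 2 fell (Acaca 1.30 ± 0.34, Pklr -1.30 ± 0.29). Of the hepatocyte markers 7 of 8 fell (median -0.89), as did the 4 macrophage markers and the 3 endothelial markers tested, and their part in the member values was not tested.

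In VsWAT small RNA, Pck1 was the clearest member. It read 410, 332 and 305 CPM in HFD input and 369, 297 and 489 CPM in LFD input, and 1760, 1409 and 2374 CPM in HFD pull-down and 1527, 1741 and 2176 CPM in LFD pull-down. The fractions were far apart in both diets, and Pck1 rose by 1.69 ± 0.21 (edgeR adjusted p = 4.4e-06), where 2 members rose and 1 fell against 21.3% of 11339 features higher and 23.2% lower. Ppargc1a, at 0.936 to 5.69 CPM in input and 7.56 to 16.3 CPM in pull-down, rose by 1.37 ± 0.42 without overlap (edgeR adjusted p = 0.013). Fbp1, at 0.936 to 17.0 CPM in input and 0.478 to 8.36 CPM in pull-down, passed as lower (-1.77 ± 0.65, edgeR adjusted p = 0.039) on overlapping libraries, and the call ended with total-count scaling (adjusted p = 0.13) or with near-identical inputs summed (adjusted p = 0.074), and without any 1 of 8 of the 12 libraries (adjusted p from 0.053 to 0.13). Irs2, at 19.5 to 39.6 CPM in input and 38.4 to 82.7 CPM in pull-down, had a difference of 0.19 ± 0.18 (edgeR adjusted p = 0.42).

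G6pc and Tat were high in the VsWAT libraries in which the liver transcript Alb was high. Alb stood at 642, 894 and 1063 CPM in the inputs HFD 1, HFD 2 and LFD 1 and at 108 to 262 CPM in the other 3, and these same inputs held 7.83, 13.6 and 11.7 CPM of G6pc against 0.820 to 1.62 CPM in the others. The inputs HFD 1 and HFD 2 are near-identical and may not be separate samples. In pull-down, HFD 1, HFD 2 and LFD 1 again held most G6pc (20.5, 26.2 and 16.4 CPM), and HFD 3, LFD 2 and LFD 3 read 0, 1.68 and 1.94 CPM. Tat did the same in pull-down, with 62.7, 133 and 73.8 CPM against 0.956, 23.1 and 10.5 CPM. G6pc (0.09 ± 0.98), Tat (1.00 ± 0.84) and Igfbp1 (0.88 ± 0.90) had edgeR adjusted p from 0.36 to 0.95. Without the 3 replicates high in Alb, Ppargc1a was at 1.13 (adjusted p = 0.23) and Fbp1 at -1.94 (adjusted p = 0.22), so only Pck1 remained past the threshold; the part of liver RNA in these values was not tested.

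Of the lists in VsWAT pull-down, 12 of 20 regulators rose and 1 fell (Cebpa 1.86 ± 0.15, Kat2b 1.40 ± 0.17), 6 of 16 fasting and glucocorticoid genes rose and 2 fell (Lpin1 1.53 ± 0.17, Bcl6 1.14 ± 0.17), 2 of 21 gluconeogenic genes rose and 9 fell (Gpi1 -1.13 ± 0.15, Gpt2 0.96 ± 0.13), 2 of 12 in amino acid catabolism rose and 3 fell (Hal -1.54 ± 0.21, Fah -0.46 ± 0.12) and 3 of 10 insulin-induced genes rose and 2 fell (Srebf1 1.52 ± 0.18, Mlxipl 1.39 ± 0.22). Of the adipocyte markers 5 of 7 rose and 2 fell (median 0.73), their summed level being 6672 to 8510 CPM in input and 14927 to 21486 CPM in pull-down, while the 4 macrophage and the 4 endothelial markers fell. The part of these markers in the member values was not tested. Total-count scaling moved the median of all features in this comparison from 0.01 to 0.64.

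GAS held little of the hepatic enzymes. Igfbp1 had 0 counts in all 18 GAS libraries, which allows up to 0.0688 CPM in total RNA, 0.403 CPM in small RNA input and 0.239 CPM in its pull-down (3 counts over each set, counting error only). Between pull-down and input 3 members could be tested, of which 1 rose and 1 fell against 27.9% and 26.5% of 9797 features. Ppargc1a read 66.6, 28.5 and 38.9 CPM in HFD input and 37.1, 21.5 and 27.5 CPM in LFD input, against 525, 218 and 369 CPM in HFD pull-down and 311, 208 and 260 CPM in LFD pull-down. The fractions were widely apart, and Ppargc1a rose by 2.18 ± 0.21, 4.52-fold (edgeR adjusted p = 1.9e-08).

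Irs2 in GAS read 31.0, 12.5 and 20.02 CPM in HFD input, 19.4, 17.6 and 27.5 CPM in LFD input, 64.2, 20.2 and 34.2 CPM in HFD pull-down and 13.8, 20.7 and 17.0 CPM in LFD pull-down. The fractions overlapped; after TMM scaling Irs2 passed as lower (-0.61 ± 0.25, edgeR adjusted p = 0.045), DESeq2 gave -0.62 with adjusted p = 0.097, total-count scaling turned it to 0.29 (adjusted p = 0.41), and 4 of 17 alternatives kept the call, which was lost without any 1 of 10 of the 12 libraries (adjusted p from 0.067 to 0.14). Pck1 had a difference of -0.33 ± 0.27 (edgeR adjusted p = 0.31). Around them, 10 of 19 regulators rose and 0 fell (Nr4a1 2.30 ± 0.17, Nr3c1 1.46 ± 0.20), 7 of 16 fasting and glucocorticoid genes rose and 1 fell (Sgk1 3.02 ± 0.25, Tsc22d3 1.48 ± 0.21), 8 of 20 gluconeogenic genes rose and 3 fell (Gpt2 1.51 ± 0.19, Pcx -1.66 ± 0.24), 3 of 6 in amino acid catabolism rose and 2 fell (Hal -2.96 ± 0.40, Oat 0.85 ± 0.19) and 0 of 11 insulin-induced genes rose and 4 fell (Fasn -2.67 ± 0.40, Scd1 -1.57 ± 0.33). Of the skeletal muscle markers 1 of 7 rose and 4 fell, as did 1 and 4 of the 7 adipocyte markers, and the 4 macrophage and the 3 endothelial markers tested fell. Mitochondrial mRNA took 2.00% to 3.13% of counts in input and 24.4% to 31.8% in pull-down. The part of these in the member values was not tested. Total-count scaling moved the median of all features from 0.06 to 0.96.

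Diet separated GAS libraries by Pck1 in all 3 kinds of library. In total RNA Pck1 read 2.92, 2.46 and 2.73 CPM on HFD and 18.6, 29.4 and 26.1 CPM on LFD, a log2 difference of -2.82 ± 0.26 (edgeR adjusted p = 0.0047). Small RNA input read 12.4, 6.84 and 9.42 CPM on HFD and 28.5, 41.0 and 59.6 CPM on LFD, a difference of -1.92 ± 0.32 (edgeR adjusted p = 0.01). Small RNA pull-down read 9.95, 4.04 and 8.45 CPM on HFD and 68.7, 83.7 and 94.9 CPM on LFD, a difference of -3.40 ± 0.31, or 10.5-fold (edgeR adjusted p = 7.8e-05). In each kind of library the HFD and LFD values were far from overlapping, and Pck1 was the 1 member of 3 tested that passed, against 0.91% of 11866, 0.276% of 5072 and 0.718% of 9058 features. The call ended in total RNA without HFD 2 (-2.76, adjusted p = 0.14) and in small RNA input without HFD 2 (adjusted p = 0.088), HFD 3 (adjusted p = 0.13) or LFD 2 (adjusted p = 0.063).

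Adipocyte markers moved with Pck1 in GAS. Their summed level over all 7 markers was 169 to 217 CPM on HFD and 799 to 982 CPM on LFD in total RNA, 135 to 259 against 464 to 949 CPM in small RNA input and 286 to 357 against 1383 to 1658 CPM in pull-down. Of the 7, 6 fell in total RNA, 1 in small RNA input and 6 in pull-down, with Fabp4 at -1.83 ± 0.19, Adipoq at -1.81 ± 0.26 and Plin1 at -2.07 ± 0.30 in total RNA, while 0 of 7 skeletal muscle markers passed. Per 1000 CPM of adipocyte markers, Pck1 came to 12.6 to 17.3 CPM on HFD and 23.3 to 32.5 CPM on LFD in total RNA, to 42.8 to 50.8 against 61.4 to 67.0 CPM in small RNA input and to 14.1 to 27.8 against 41.4 to 65.0 CPM in pull-down. In VsWAT the same ratio over both diets was 23.7 to 64.3 CPM in total RNA, 38.8 to 73.3 CPM in small RNA input and 71.1 to 146 CPM in pull-down. Insulin-induced genes fell as well, 4 of 9 tested in total RNA (Acly -2.66 ± 0.30, Acaca -1.86 ± 0.24), 4 of 9 in small RNA input (Acly -2.66 ± 0.38, Fasn -3.83 ± 0.53) and 4 of 10 in pull-down (Thrsp -3.68 ± 0.32, Fasn -4.19 ± 0.44), with Cebpa the 1 regulator that fell in total RNA (-2.04 ± 0.33) and in pull-down (-2.58 ± 0.43) and Pcx the 1 gluconeogenic gene that fell in small RNA input (-1.42 ± 0.29). The part of adipocyte content in the Pck1 values was not tested.

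**Figure D5:**
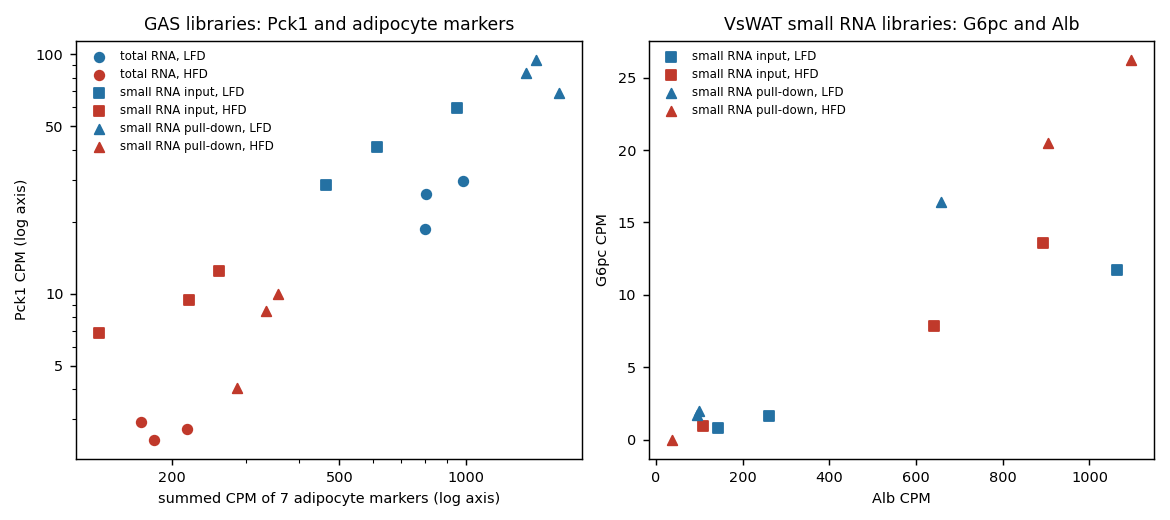
Left, Pck1 CPM against the summed CPM of 7 adipocyte markers in GAS libraries, both on log axes; right, G6pc CPM against Alb CPM in VsWAT small RNA libraries. Within each kind of GAS library the LFD libraries lie higher on both axes, and in VsWAT the replicates rich in Alb hold most of the G6pc.

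Irs2 and Ppargc1a did not pass between diets in GAS. In total RNA Irs2 read 26.9, 12.9 and 22.8 CPM on HFD and 16.1, 15.6 and 14.7 CPM on LFD (0.79 ± 0.25, edgeR adjusted p = 0.16), and Ppargc1a 143, 88.8 and 148 CPM on HFD and 128, 105 and 114 CPM on LFD (0.50 ± 0.20, edgeR adjusted p = 0.22). Both pairs of groups overlapped. In pull-down Irs2 stood at 1.22 ± 0.35 (edgeR adjusted p = 0.19) and Ppargc1a at 0.55 ± 0.25 (edgeR adjusted p = 0.55).

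VsWAT and GAS total RNA differed in Pck1 and Ppargc1a in opposite directions, among 2 members higher in VsWAT and 1 lower of 4 tested, against 28.3% and 35.6% of 13622 features. Pck1 read 305 to 484 CPM in VsWAT and 2.46 to 29.4 CPM in GAS, a difference of 4.77 ± 0.47 (edgeR adjusted p = 2.3e-06). Ppargc1a read 2.74 to 5.58 CPM in VsWAT and 88.8 to 148 CPM in GAS, a difference of -5.42 ± 0.26 (edgeR adjusted p = 4e-10). Neither pair of ranges overlapped. Tat was the other gene past the threshold, on 44 counts over the 6 VsWAT libraries and 1 count over the 6 GAS libraries, too few for a fold. Irs2 read 16.8 to 38.8 CPM in VsWAT and 12.9 to 26.9 CPM in GAS, overlapping, at -0.07 ± 0.19 (edgeR adjusted p = 0.77), which total-count scaling turned to 0.54 (adjusted p = 0.041). Insulin-induced genes counted 8 higher and 0 lower in VsWAT of 10 (Thrsp 3.83 ± 0.28, Scd1 4.34 ± 0.48), the gluconeogenic pathway 6 and 14 of 22 (Got1 -5.76 ± 0.24, Fbp2 -5.47 ± 0.34), regulators 1 and 13 of 19 (Nr4a1 -4.56 ± 0.28, Cebpa 3.75 ± 0.27), fasting and glucocorticoid genes 3 and 8 of 17 (Angptl4 4.25 ± 0.29, Tsc22d3 -2.01 ± 0.19) and amino acid catabolism 4 and 2 of 10 (Fah 4.20 ± 0.23, Oat -1.37 ± 0.13).

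Plasma small RNA held few fragments of these genes. Pck1 read 24.5 and 7.25 CPM in HFD input and 5.97 and 18.0 CPM in LFD input, against 1136 and 0 CPM in HFD pull-down and 160 and 681 CPM in LFD pull-down. Tat read 15.3 and 3.62 CPM in HFD input and 0 and 1.80 CPM in LFD input, against 481 and 0 CPM in HFD pull-down and 13.0 and 437 CPM in LFD pull-down. HFD pull-down replicate 2 had 0 counts of all 7 genes, so the fractions overlapped, while Alb in the same 4 pull-downs read 6280, 18.1, 346 and 1767 CPM and was likewise lowest there. Of the 2 members that could be tested, 0 passed, against 1.01% of 3469 features higher and 2.91% lower: Pck1 was at 3.16 ± 1.33 (edgeR adjusted p = 0.18) and Tat at 3.99 ± 1.86 (edgeR adjusted p = 0.27). Both had an unadjusted p under 0.05, DESeq2 called 0 members, and total-count scaling called both (Pck1 5.13, adjusted p = 0.0015; Tat 5.94, adjusted p = 0.025), under which the median of all features was 2.04 in place of 0.10. With that scaling 241 of all features were called higher and 16 lower.

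In the remaining diet comparisons 0 members passed with edgeR or with DESeq2. Liver small RNA input had 0.111% of 5421 features called and 3 members with an unadjusted p under 0.05; Irs2 had the smallest of them, at 1.16 ± 0.30 (edgeR adjusted p = 0.17), with 46.5, 65.1 and 41.8 CPM on HFD above 14.1, 28.5 and 35.4 CPM on LFD. Liver small RNA pull-down had 0.0545% of 9167 features called and 3 members with an unadjusted p under 0.05, including Igfbp1 at 2.61 ± 0.89 (edgeR adjusted p = 0.48), which read 825, 498 and 3298 CPM on HFD and 320 and 261 CPM on LFD. This direction is opposite to that in liver mRNA pull-down, and the difference between the RNA types was not tested. VsWAT had 0.213% of 7987 features called in small RNA input (0 members with an unadjusted p under 0.05), 0.103% of 10712 in small RNA pull-down (1 member) and 0.194% of 12385 in total RNA (0 members). Pck1 in VsWAT total RNA read 450, 313 and 305 CPM on HFD and 323, 312 and 484 CPM on LFD, overlapping, at -0.35 ± 0.34 (edgeR adjusted p = 0.71). The diet by pull-down interaction called 0% of 8401 features in liver small RNA (edgeR; 345 features and 0 members with an unadjusted p under 0.05; DESeq2 0 features), 0% of 11339 in VsWAT small RNA (458 and 0; DESeq2 2) and 0% of 9797 in GAS small RNA (415 and 1, Pck1 at -1.55 ± 0.46 with an edgeR adjusted p of 0.82; DESeq2 14).

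Over the 28 group means of log2(CPM + 1), the genes whose profile was most like each member were named as a description, without a test, among 12284 features with a group mean of at least 20 CPM. The points share tissues and libraries, so these values mostly order tissues. Pck1 was most like Baiap2 (Pearson r = 0.968), Aldh1l1 (0.947) and Gnai3 (0.945), and G6pc most like Sult1d1 (0.991), Gldc (0.984) and Glyat (0.980). Slco1a1 (0.977) was among the genes most like Fbp1, and Tat was most like Cyp7a1 (0.985), Arg1 (0.984) and Tdo2 (0.983). Igfbp1 was most like Elovl2 (0.955), Fga (0.954) and Itih2 (0.948), Irs2 most like Fam193a (0.923), Klf6 (0.914) and Abl2 (0.894), and Ppargc1a most like Cep85 (0.881), Ube2d1 (0.865) and Pptc7 (0.855).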

How the data were processed

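RNA was sequenced as 77 libraries. Per the labels' protocols, Tri reagent BD served for plasma after spin filtration and NucleoZOL for tissues, and CATS small RNA libraries (Diagenode) were read from 1 end over 75 bases. The authors deposited raw counts per gene, made with STAR and HTSeq on mm10 per the submitters' processing notes, with no versions. The total RNA files also list reads in no feature (19.6% to 32.3% of those listed) or without a unique alignment (11.8% to 21.3%), which were left out of library sizes and tests. Groups follow the labels for tissue, type of RNA, input or pull-down, and diet. The members, the 5 pathway lists and the markers were chosen with earlier results of these data known.

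Features were tested with edgeR 4.0.16 in R 4.3.3 (robust quasi-likelihood, TMM scaling, filterByExpr with a minimum count of 10, two-sided, adjusted p under 0.05 over all features). The SE was taken as the absolute log2 difference divided by √F. Floors for a 0 are 3 counts over a set and cover counting error only. Low counts limit precision most in plasma. Named were all members, the list genes with the smallest p (up to 3 per list in liver and kidney mRNA pull-down, up to 2 elsewhere) and the 3 genes most alike per member; a few genes that this rule names are not reported here. The pipeline was tested on simulated data with known changes. Each result was recomputed with total-count scaling, DESeq2-type size factors, DESeq2 1.42.0 itself, no filter, the replicate block, a spread from 4 groups, near-identical libraries summed, libraries that stood apart left out and each library left out in turn. Replicate numbers come from the labels. By the rule used here, same-numbered libraries counted as paired where at least 3 pairs all had r above 0.1. This was met between diets in liver mRNA pull-down (0.161 to 0.174) and between GAS small RNA input and pull-down (0.223 to 0.426). Between diets in kidney mRNA input r was 0.383 and 0.455, but on only 2 pairs. The main tests were unpaired, and pairing entered only through the replicate block. Comparisons of the 2 diets in plasma were not made.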

Additional observations from a re-analysis of the deposited data

Results flagged for a closer look

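Ppargc1a was enriched more strongly in liver than in kidney mRNA, by 1.04 on the log2 scale (edgeR adjusted p = 0.0057). Of all 13724 features, 3.71% passed this test as higher and 8.84% as lower. A single call among the 7 genes is near the share called in either direction. The sources used here do not name the labelled cells of either organ.

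Igfbp1 moved with diet in opposite directions in the pull-downs of the 2 organs. The HFD mean was 1.83 times the LFD mean in kidney mRNA pull-down, with all 3 HFD libraries above both LFD libraries, and 0.482 times the LFD mean in liver mRNA pull-down, with all 3 HFD libraries below all 3 LFD libraries. The difference between the organs was not tested, and the kidney difference alone did not pass (edgeR adjusted p = 0.94).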

How the results depend on the processing

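The 7 calls in liver mRNA pull-down, the calls of G6pc, Igfbp1, Irs2 and Ppargc1a between diets in that pull-down and the Ppargc1a difference in enrichment between liver and kidney held under every alternative run for them. So did the pull-down calls of Pck1, G6pc, Fbp1, Igfbp1 and Irs2 in kidney, Pck1 in VsWAT and Ppargc1a in GAS. The same was true of Pck1 between diets in GAS pull-down, of Tat, Igfbp1, Irs2 and Ppargc1a in liver against kidney, and of Pck1, Tat and Ppargc1a in VsWAT against GAS. Only Irs2 turned sign where it was called on either side, each time with total-count scaling: to 0.85 in liver small RNA pull-down against input, to 0.29 in GAS small RNA pull-down against input and to 0.54 in VsWAT against GAS. A further 113 sign changes in 44 pairs of member and comparison concerned values not called on either side. The causes were not tested.

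Numbers of members called that changed by over 1.5 times, by setting and against the number reported: DESeq2 gave 2 in place of 1 in liver small RNA pull-down, 1 in place of 2 in GAS pull-down, 1 in place of 0 for the liver mRNA interaction, 3 in place of 1 for liver minus kidney enrichment and 5 in place of 3 in VsWAT against GAS; its smaller changes were 6 in place of 5 between diets in liver mRNA input and in liver against kidney, and 5 in place of 6 between diets in liver mRNA pull-down and in kidney pull-down. Total-count scaling gave 6 in liver small RNA pull-down, 1 in GAS pull-down, 2 in place of 0 in plasma and 2 for the enrichment difference. With no filter on low counts the numbers were 3 in liver small RNA pull-down, 1 in GAS pull-down, 5 in VsWAT against GAS, 2 in place of 1 between diets in GAS pull-down and in GAS total RNA, and 1 in place of 0 between diets in liver small RNA input and VsWAT total RNA and for the kidney interaction. Summing near-identical libraries gave 0 in place of 5 between diets in liver mRNA input. Without replicates high in Alb, VsWAT pull-down gave 1 in place of 3; without kidney inputs high in mitochondrial mRNA, 3 in place of 0 between diets in input and 1 in place of 0 for the interaction; without total RNA libraries high in Gm42418, 2 in place of 0 between diets in VsWAT, where 1 LFD library was left and was assumed to vary like the others, and 5 in VsWAT against GAS.

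With the replicate number as a block, 6 members in place of 1 were called in liver small RNA pull-down. The block gave 0 in place of 5 between diets in liver mRNA input and 2 in place of 1 for the enrichment difference. These numbers did not meet the rule for pairing. In liver small RNA, r between input and pull-down was 0.025 to 0.287 over 5 pairs, so whether those libraries are paired was not settled. Where numbers paired the libraries, the block changed no member's call.

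Leaving out 1 library at a time gave 1 to 6 members between diets in liver mRNA input, 0 to 4 for the liver mRNA interaction, 1 to 4 in liver small RNA pull-down, 1 to 3 for the enrichment difference, 1 to 2 in GAS pull-down, and 0 to 1 between diets in GAS total RNA, GAS small RNA input, kidney pull-down and liver small RNA pull-down and for the kidney interaction.

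Without 1 library at a time, the numbers called over all features, and with them the background shares, moved too. For diet, liver mRNA input gave 48 to 5582 and its pull-down 1060 to 1596, kidney input gave 0 to 1647 and its pull-down 0 to 463, total RNA gave 1 to 140 for GAS and 4 to 82 for VsWAT, and the small RNA sets gave 0 to 68. The liver mRNA interaction gave 14 to 3052, the kidney interaction 0 to 1421, the enrichment difference 1149 to 2626 and plasma pull-down 32 to 201.

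Counts over all features moved by over 1.5 times under other settings as well. Between diets, liver mRNA input went from 1328 to 28 (block), 0 (summed) and 2439 (spread from 4 groups), liver mRNA pull-down from 1575 to 675 (spread from 4 groups), kidney input from 0 to 144 (DESeq2), 1536 (no filter) and 6722 (without high-mitochondrial inputs), GAS total RNA from 108 to 455 (DESeq2), 987 (total count), 377 (no filter), 56 (block) and 33 (without high Gm42418), and VsWAT total RNA from 24 to 196, 133, 621, 62 and 966 in the same order. The liver mRNA interaction went from 365 to 745 (DESeq2), 231 (total count), 615 (no filter), 0 (block) and 0 (summed), the kidney interaction from 0 to 104 (DESeq2), 480 (no filter) and 1420 (without high-mitochondrial inputs), plasma pull-down from 136 to 66 (DESeq2), 257 (total count), 39 (no filter) and 80 (block), VsWAT pull-down from 5047 to 2242 (without high Alb) and the enrichment difference from 1722 to 1046 (block). The diet sets of small RNA, at 5 to 65 features, moved to between 6 and 245, kidney pull-down from 0 to 10 (no filter), and the VsWAT and GAS interactions from 0 to at most 27 and 24.

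Total-count scaling also moved the share of higher among called features: from 50.6% to 63.7% in kidney pull-down, 48.8% to 89.1% in liver small RNA, 47.9% to 82.6% in VsWAT, 51.3% to 83.4% in GAS, 25.7% to 93.8% in plasma, 48.4% to 73.9% between diets in liver mRNA pull-down, 47.2% to 3.44% in GAS total RNA, 33.3% to 54.1% in VsWAT total RNA, 54.8% to 90.5% for the liver mRNA interaction, 45.8% to 27.1% in liver against kidney, 29.6% to 56.5% for the enrichment difference, 44.3% to 71.2% in VsWAT against GAS, and, on 5 to 36 called features, 66.7% to 33.3% and 60% to 30.6% between diets in liver small RNA input and pull-down and 41.2% to 30% in VsWAT small RNA input. DESeq2-type size factors gave 39.6% in plasma, 43.8% for the liver mRNA interaction and 48.1% for the enrichment difference. Depth limits plasma most, where 5 of the 7 members were too low to test.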
